A study of Rattus norvegicus with 3 samples.

Results

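The genes described here regulate SREBPs, the transcription factors of sterol and fatty acid synthesis, or move sterols into and within cells. The set is Srebf1, Srebf2, Scap, Insig1, Insig2, Stard4 and Npc1l1. They were chosen by name, through the gene symbols of the array probes, and with earlier results of these data known. All 7 were measured, by 14 of the 41103 probes and as 7 of 15924 named genes. Insig1 had 4 probes, Srebf1 had 3, Srebf2 and Insig2 had 2 each, and Scap, Stard4 and Npc1l1 had 1 each.

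The cells were NR8383, an established line of rat alveolar macrophages, the phagocytes of the lung surface. One group received the single-wall carbon nanotubes named CNT-2 and another those named CNT-1, each free of impurities, at 0.1 mg/mL for 24 h in a working solution with 1 mg/mL albumin. The control for both is labelled untreated in one field and albumin solvent in another, so whether it received albumin is not settled. Neither the way in which CNT-1 and CNT-2 differ nor the effect of the nanotubes on cell number is given in the sources used here, so fewer cells of a kind and less RNA per cell cannot be told apart.

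Total RNA was measured on 1-colour Agilent arrays, and each group had 1 column of values. The values are log differences, presumed to be log2, set by the authors relative to an unstated baseline for each probe, so that most probes lie near 0 in the control column. They show how a gene differed between columns and not how strongly it was expressed. The design text mentions an n of 4 but does not say what was counted, and the columns carry no spread between cultures. No difference below was therefore tested. The error given is the SD over the probes of a gene, which is technical, and with 1 column per group the precision of each value cannot be measured.

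SREBPs are made as membrane proteins of the endoplasmic reticulum. When sterols are scarce, the escort protein Scap carries them to the Golgi, where proteases release the active factor, and when sterols are plentiful Insig proteins hold the Scap complex back. SREBP-2, from Srebf2, mainly drives genes of cholesterol synthesis and uptake, and the SREBP-1 isoforms, from Srebf1, mainly drive genes of fatty acid synthesis. Insig1 and Stard4 are themselves known SREBP targets, and macrophages use this system to adjust sterol synthesis and uptake to the sterol they hold.

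In CNT-2 cells 4 of the 7 genes, Insig1, Npc1l1, Stard4 and Insig2, were at least 1 log2 unit (2-fold) above control and none was that far below. Of all genes, 10.1% were that far above control in CNT-2 cells and 6.56% that far below. In CNT-1 cells 1 of the 7, Insig1, was past the same difference, against 1.16% of all genes, and again none was that far below, against 2.15% of all genes. The median of the 7 genes was 1.62 in CNT-2 and 0.35 in CNT-1, each minus control, beside medians over all genes of 0.04 in CNT-2 and -0.04 in CNT-1. By probe, 13 of 14 lay above control in CNT-2 and 11 of 14 in CNT-1, beside 53.4% and 44.0% of all gene probes in these comparisons. Both comparisons share the control column, and the 7 genes were chosen with earlier results of these data known.

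**Figure D1:**
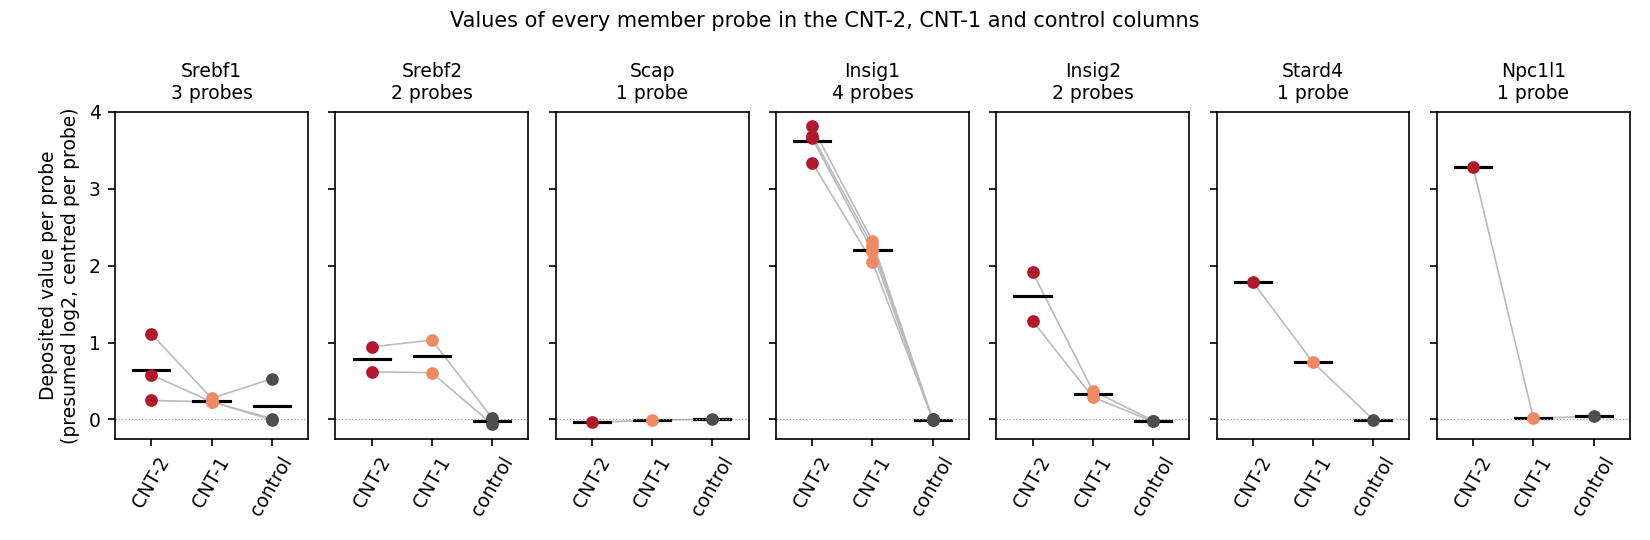
Deposited values of the 14 probes (y axis, presumed log2, centred per probe) in the CNT-2, CNT-1 and control columns, 1 panel per gene. Points are probes, grey lines join the values of 1 probe, and black bars are means over probes. Insig1 stands above the other genes in the CNT-1 column with a mean of 2.20, and Npc1l1 is at 3.28 in CNT-2 and at 0.018 in CNT-1.

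Srebf2 encodes SREBP-2, and its difference from control was under 1 log2 unit in both exposures. Its first probe read 0.62 in CNT-2, 0.61 in CNT-1 and -0.061 in control, and its second read 0.94 in CNT-2, 1.03 in CNT-1 and 0.021 in control. Both nanotube columns thus lay above control in both probes, at nearly the same height as deposited. Minus control the gene was at 0.80 ± 0.17 in CNT-2 and 0.84 ± 0.24 in CNT-1 (probe SD, 2 probes each), and 2234 genes were further above control in CNT-2 and 298 in CNT-1. The near equality of the exposures did not hold under other scalings. The differences from control were 0.36 in CNT-2 and 0.79 in CNT-1 with 75th percentile centring, 0.56 in CNT-2 and 0.88 in CNT-1 with spike-in centring, and 0.55 in CNT-2 and 1.31 in CNT-1 with quantile normalization. As deposited, it was the member with the 2nd largest difference in CNT-1 and the 5th largest in CNT-2.

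Srebf1 encodes both SREBP-1 isoforms, which these probes do not separate by name. Its 3 probes read 1.11, 0.25 and 0.58 in CNT-2, 0.28, 0.23 and 0.23 in CNT-1, and 0.53, 0.012 and -0.004 in control, in the same probe order. The first probe was the only one of the 14 more than 0.1 away from 0 in the control, and it alone of the 3 lay lower in CNT-1 than in control. Minus control the gene was at 0.47 ± 0.20 in CNT-2 and 0.07 ± 0.28 in CNT-1 (probe SD, 3 probes each). Without the first probe these values were 0.41 in CNT-2 and 0.23 in CNT-1. No Srebf1 probe was 1 log2 unit from control in either exposure.

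Scap, the escort and sterol sensor, read -0.039 in CNT-2, -0.009 in CNT-1 and 0.004 in control on its probe. The columns differed by less than 0.1 log2 units, and the gene lay close to the middle of all genes, with 42.8% of genes below it in CNT-2 and 55.5% in CNT-1, each minus control. Its differences were -0.04 in CNT-2 and -0.01 in CNT-1. The sign of the CNT-1 value turned under median, spike-in and quantile scaling, to 0.01, 0.02 and 0.04.

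Of the retention proteins, Insig1 had the largest difference of the set in either exposure. Its 4 probes read 3.65, 3.34, 3.69 and 3.81 in CNT-2, 2.19, 2.05, 2.26 and 2.32 in CNT-1, and -0.006, 0.005, 0.001 and -0.001 in control. All probes had the same order of columns, and their values did not overlap between columns. The share of other genes with several probes that did the same was not counted, and the centring keeps most control values close together. The probes are technical reads of the same columns, so the separation shows agreement between the probes of Insig1 and not between cultures. Minus control the gene was at 3.62 ± 0.20 in CNT-2 and 2.20 ± 0.12 in CNT-1 (probe SD, 4 probes each). In CNT-2 it stood 12.3-fold above control if the scale is log2, and 114 of 15924 genes were further above. In CNT-1 it stood 4.61-fold above control, with 6 genes further above, which made it the 7th highest gene of that comparison.

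Insig2, its paralog with a like role in retention, differed less. Its probes read 1.92 and 1.28 in CNT-2, 0.38 and 0.29 in CNT-1, and -0.014 and -0.026 in control. Minus control the gene was at 1.62 ± 0.44 in CNT-2 and 0.35 ± 0.05 in CNT-1 (probe SD, 2 probes each). The probes of Insig1 and Insig2 did not overlap in either comparison: the lowest Insig1 probe was at 3.33 in CNT-2 and 2.04 in CNT-1, and the highest Insig2 probe at 1.93 in CNT-2 and 0.39 in CNT-1, each minus control. The 2 Insig2 probes were named through different transcript records and differed by more than the 4 probes of Insig1 in CNT-2.

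Sequence before an annotated start is shown for Insig1, the member past 1 log2 unit in both exposures, for Srebf2, the gene of SREBP-2 and the member with a partial match to the sterol regulatory element, and for Npc1l1, which was past 1 log2 unit in CNT-2 only. The sequences are RefSeq's for build GRCr8, 5′ to 3′ on the strand of the gene, and the arrays name no build. Capitals mark matches on either strand to TCACNCCA (part of the sterol regulatory element), CACGTG (an E-box, a form also bound by SREBPs), CCAAT (bound by NF-Y) and GGGCGG (bound by Sp1). The Insig1 stretch lies at chr4:8057813-8058019 on the minus strand and leaves out the 43 bases next to the start used, which fall within the annotated gene. The Srebf2 stretch is 30 bases at chr7:115543140-115543169 on the plus strand, before a start that lies inside the span of the annotated gene. The Npc1l1 stretch is the 250 bases before its start, chr14:85305051-85305300 on the minus strand.
Insig1: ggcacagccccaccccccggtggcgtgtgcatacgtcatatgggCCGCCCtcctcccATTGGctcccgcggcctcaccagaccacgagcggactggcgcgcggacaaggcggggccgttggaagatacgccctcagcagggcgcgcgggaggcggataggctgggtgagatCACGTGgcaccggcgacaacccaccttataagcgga
Srebf2: atgacgcgccaTCACCCCAtgagccgcttc
Npc1l1: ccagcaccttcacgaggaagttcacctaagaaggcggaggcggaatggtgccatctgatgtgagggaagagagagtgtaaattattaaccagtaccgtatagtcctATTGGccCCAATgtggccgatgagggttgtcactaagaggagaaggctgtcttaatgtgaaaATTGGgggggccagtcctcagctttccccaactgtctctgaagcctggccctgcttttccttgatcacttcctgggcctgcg

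The 250 bases before the annotated start were searched for the 6 members with an entry, Srebf1 having 2 starts. The full sterol element, searched as TCACNCCAC, and the E-box form TCACGTGA were in no member's window, and in 0.97% and 0.66% of all 33469 windows. Of the 16 cholesterol synthesis enzymes with a window, 0 had either full form. Shorter forms, chosen after the sequences were seen and contained in the full ones, matched more often. TCACNCCA was in the Srebf2 window, 156 bases before the start, and in 3.24% of all windows, whereas CACGTG was in the Insig1 and Scap windows, 79 and 50 bases before the start, and in 5.59% of all. CCAAT was in windows of 5 of the 6 members, Scap being the exception, and in 34.0% of all windows. GGGCGG was in windows of 4 of the 6, and Insig2 and Npc1l1 had none, against 30.5% of all windows. Among the 16 cholesterol synthesis enzymes, 13 had CCAAT and 13 had GGGCGG, so neither was particular to the members. The windows of Insig2 and Srebf2 lie 12839 and 533 bases inside the span of the annotated gene, so other starts of these genes were not searched. A match is a string in a window and not a shown binding site.

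Stard4 and Npc1l1 move sterols. Stard4, a soluble START domain protein that shuttles cholesterol between membranes, read 1.79 in CNT-2, 0.74 in CNT-1 and -0.002 in control. The columns stood in the same order as for Insig1, with smaller steps, and 542 genes in CNT-2 and 370 in CNT-1 were further above control. As a fold it was 3.46 above control in CNT-2 and 1.67 in CNT-1.

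Npc1l1, the transporter for sterol uptake known from the gut lining, read 3.28 in CNT-2, 0.018 in CNT-1 and 0.040 in control. Only the CNT-2 column stood out, 9.46-fold above control, with 146 genes further above. In CNT-1 the difference was -0.02, with 53.7% of genes below it, and its sign turned under median and spike-in scaling. The gene rests on 1 probe. In the control column that probe lay near 0 and more than 0.02 from the negative-control probe, which was at 0.16, but the centring hides whether the gene was above background there.

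**Figure D2:**
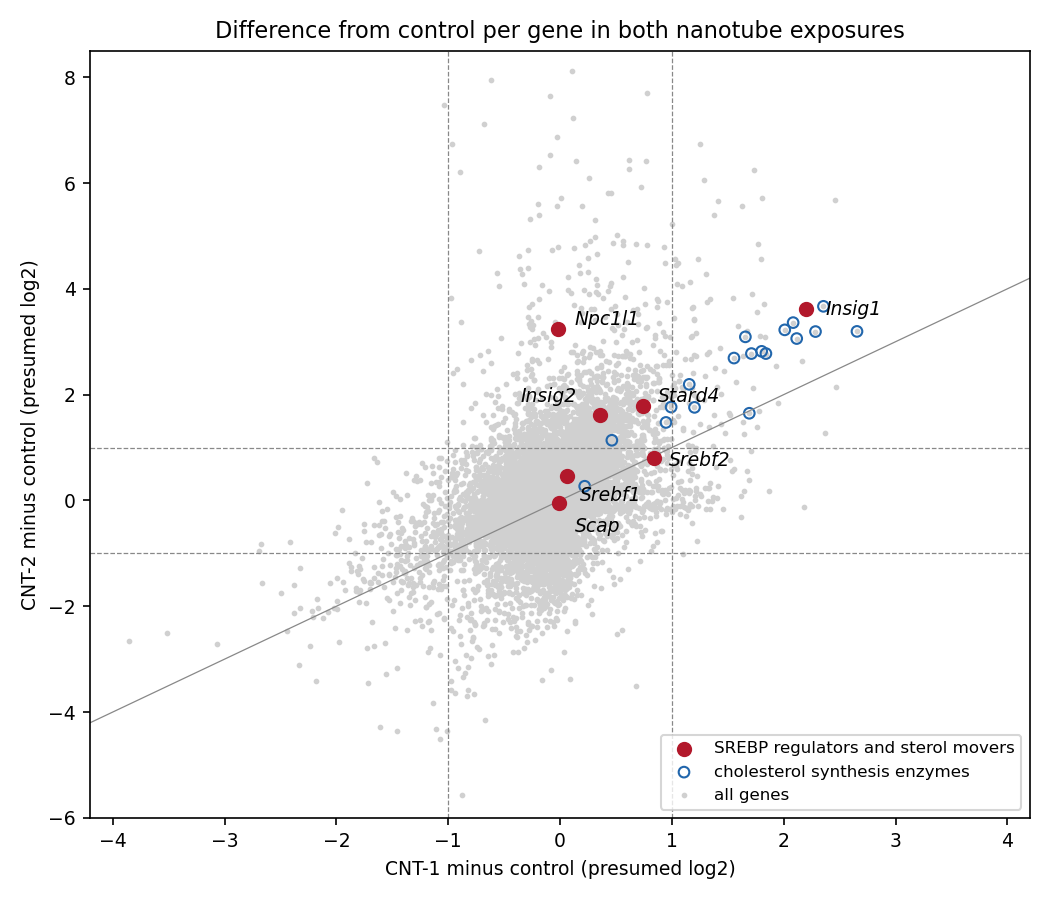
Difference from control per gene in CNT-1 (x axis) and CNT-2 (y axis), presumed log2, for the 7 described genes (red), 18 cholesterol synthesis enzymes (blue rings) and all 15924 genes (grey). Dashed lines mark 1 log2 unit and the solid line equal differences. Insig1 lies among the enzymes, at 3.62 in CNT-2 and 2.20 in CNT-1, Srebf2 lies close to the line of equal differences as deposited, and Npc1l1 lies near 0 on the CNT-1 axis.

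The nearest genes by Euclidean distance over these 2 differences, which come from 3 columns, were named for each gene past 1 log2 unit. Closest to Insig1 were Sc5d, a sterol desaturase of cholesterol synthesis, at a distance of 0.16, the isoprenoid isomerase Idi1 at 0.29, and Edn1, the endothelin precursor, at 0.39. Within 0.2 of Insig1 lay 1 gene. For Stard4 they were Zfand5, Spetex2b and Mid1ip1, a regulator of lipogenesis, each at a distance of 0.07 and with 35 genes within 0.2. For Npc1l1 they were Il1rn, the interleukin-1 receptor antagonist, at 0.13, Sprr1a at 0.15 and the ubiquitin ligase Rnf186 at 0.19. For Insig2 they were Ankrd7, Cd164 and Gpr141, and 127 genes lay within 0.2, so its position was a common one.

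Set directly against CNT-1, CNT-2 was at least 1 log2 unit higher for 4 of the 7 genes, beside 9.32% of all genes, and at least that much lower for none, beside 4.65%. Npc1l1 was at 3.26, Insig1 at 1.42 ± 0.09 (probe SD, 4 probes), Insig2 at 1.27 ± 0.39 (probe SD, 2 probes) and Stard4 at 1.05. Srebf1 was at 0.40 ± 0.41 (probe SD, 3 probes), a spread as large as the difference. Srebf2 was at -0.04 ± 0.07 (probe SD, 2 probes) and Scap at -0.03, both below the median of all genes of 0.15. The difference seen in CNT-1 was 60.8% of that in CNT-2 for Insig1, 41.6% for Stard4, 21.8% for Insig2 and 104.7% for Srebf2, on the log scale.

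**Figure D3:**
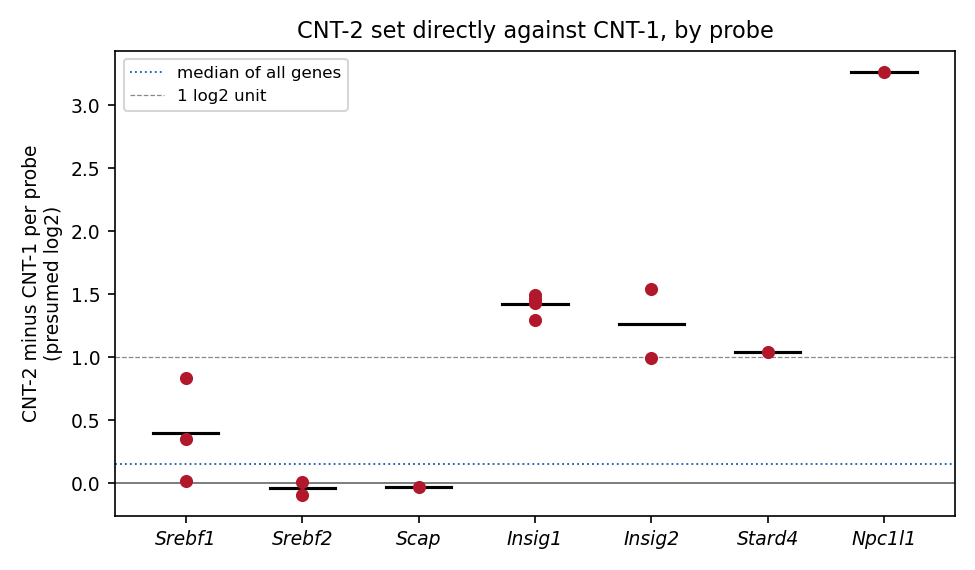
CNT-2 minus CNT-1 per probe (y axis, presumed log2) for the 7 genes (x axis). Points are probes, black bars are means over probes, and the lines mark 0, the median of all genes at 0.15 and 1 log2 unit. All 4 Insig1 probes lie between 1.29 and 1.49, and both Srebf2 probes lie between -0.09 and 0.01.

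The size of these differences depends on the scaling. Centring on the 75th percentile moved the median of all genes to -0.40 in CNT-2 relative to control and -0.23 in CNT-2 relative to CNT-1, and Insig1, at 1.04, and Npc1l1, at 2.88, were then the members past 1 log2 unit between the nanotubes. Quantile normalization gives all columns the same distribution, although as deposited their SD over gene probes was 0.89 in CNT-2, 0.37 in CNT-1 and 0.15 in control, and it put Insig1 at -1.43 and Stard4 at -0.11 for CNT-2 minus CNT-1. With quantile normalization the CNT-2 differences from control were 1.97 for Insig1, 1.60 for Npc1l1, 0.99 for Insig2, 0.96 for Stard4, 0.55 for Srebf2, -0.05 for Scap and -0.12 for Srebf1, so that Insig2 and Stard4 were no longer past 1 log2 unit and Srebf1 changed sign. In CNT-1 Insig1 was then at 3.40, Srebf2 at 1.31 and Stard4 at 1.08. The 10 spike-in probes, which measure RNA added to each labelling, were 0.25 above control in CNT-2 and -0.02 in CNT-1 by their medians, and their part in the differences was not tested.

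The other genes of the pathway were counted from lists. Of 19 measured genes for SREBP proteolysis, vesicle export to the Golgi and degradation, 2 were at least 1 log2 unit above control in CNT-2 and none in CNT-1, with medians of 0.55 in CNT-2 and 0.02 in CNT-1. The 2 genes are 10.5% of the list, close to the 10.1% of all genes that far above control in CNT-2. Spring1, which supports the site-1 protease, was at 1.26 in CNT-2 and 0.28 in CNT-1. Sar1a, a GTPase of coat assembly on export vesicles, was at 1.25 in CNT-2 and 0.24 in CNT-1. The lowest gene of the list was Mbtps1, the site-1 protease itself, at -0.84 in CNT-2 and -0.11 in CNT-1.

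Genes downstream of SREBPs differed more widely. Of 18 measured enzymes of cholesterol synthesis, 17 were past 1 log2 unit above control in CNT-2 and 14 in CNT-1. These are 94.4% of the list in CNT-2 and 77.8% in CNT-1, beside 10.1% and 1.16% of all genes. The medians were 2.78 in CNT-2 and 1.70 in CNT-1. Both counts include Acat2, whose probes disagreed, at 1.65 ± 2.30 in CNT-2 and 1.69 ± 0.62 in CNT-1 (probe SD, 2 probes each). Quantile normalization turned the order of the exposures, with medians of 1.46 in CNT-2 and 2.67 in CNT-1. Their highest gene in CNT-2 was Sc5d, at 3.67 there and 2.36 in CNT-1, and their lowest was Ggps1, which makes a prenyl donor off the sterol branch, at 0.27 in CNT-2 and 0.22 in CNT-1. Of 19 genes listed as fatty acid targets of SREBP-1, 13 were past 1 log2 unit above control in CNT-2 and 3 in CNT-1. These are 68.4% of the list in CNT-2 and 15.8% in CNT-1, beside 10.1% and 1.16% of all genes. The medians were 1.08 in CNT-2 and 0.48 in CNT-1, and which factor drove these genes was not tested. Acss2, which makes acetyl-CoA from acetate, was at 3.08 in CNT-2 and 1.83 in CNT-1, Aacs, which activates acetoacetate, at 2.49 in CNT-2 and 1.39 in CNT-1, and the elongase Elovl6 at 1.61 ± 0.02 in CNT-2 and 1.52 ± 0.16 in CNT-1 (probe SD, 2 probes each). Thrsp, a lipogenic regulator, was lowest at -0.83 in CNT-2 and -0.21 in CNT-1.

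Lipoprotein uptake genes, 9 of them measured, had medians of -0.03 in CNT-2 and 0.10 in CNT-1. Past 1 log2 unit was Lrp8, a receptor of the lipoprotein receptor family, at 1.32 in CNT-2, and it was at 0.81 in CNT-1. This is 11.1% of the list, again close to the share of all genes. Mylip, a ligase that marks such receptors for degradation, was lowest at -0.95 ± 0.32 in CNT-2 and -0.68 ± 0.08 in CNT-1 (probe SD, 2 probes each). Of 19 genes for sterol transport inside the cell and esterification, 5 were higher and 1 lower past 1 log2 unit in CNT-2. None was past it in CNT-1, and the medians were 0.60 in CNT-2 and 0.08 in CNT-1. The 5 higher genes are 26.3% of the list, beside 10.1% of all genes, and 6.56% of all genes were that far below control in CNT-2. Soat2, a sterol esterifying enzyme known from gut and liver, was at 2.63 in CNT-2 and -0.25 in CNT-1, and the oxysterol binding relative Osbpl5 at 2.41 in CNT-2 and -0.38 in CNT-1. The sterol transfer protein Gramd1b was at 2.07 in CNT-2 and 0.53 in CNT-1, Osbp at 1.32 ± 0.56 in CNT-2 and 0.44 ± 0.64 in CNT-1 (probe SD, 2 probes each), and Vapa, a membrane contact protein, at 1.02 in CNT-2 and 0.30 in CNT-1. Scp2, a sterol carrier protein, was at -2.28 ± 1.63 in CNT-2 and -0.42 ± 0.32 in CNT-1 (probe SD, 2 probes each), so its probes disagreed in size.

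Other START domain proteins lay on both sides of control. Of 13 measured, 2 were past 1 log2 unit above and 1 below control in CNT-2, and 0 above and 1 below in CNT-1, with medians of -0.24 in CNT-2 and 0.04 in CNT-1. The 2 genes above control in CNT-2 are 15.4% of the list, beside 10.1% of all genes. Of all genes, 6.56% were that far below control in CNT-2 and 2.15% in CNT-1. The CNT-2 median was 0.29 when it rested on probes near 0 in the control column. The ceramide carrier Cert1 was at 1.55 ± 0.27 in CNT-2 and 0.64 ± 0.06 in CNT-1 and the endosomal protein Stard3 at 1.01 ± 0.23 in CNT-2 and 0.24 ± 0.04 in CNT-1 (probe SD, 2 probes each). Stard10, a phospholipid carrier, was at -1.56 in CNT-2 and -2.67 in CNT-1. Of 17 genes of LXRs, the oxysterol receptors that drive cholesterol export, 1 was past 1 log2 unit in CNT-2, the exporter Abca1 at 1.33, which was at 0.12 in CNT-1. The exporter Abcg1 was lowest in CNT-2, at -0.82, and was at -0.15 in CNT-1. In CNT-1 the half-transporter Abcg8 was at -1.35 ± 0.80, and in CNT-2 at -0.71 ± 1.28 (probe SD, 2 probes each). Abca1 alone is 5.88% of the list, beside 10.1% of all genes at least 1 log2 unit above control in CNT-2. In CNT-1, 2.15% of all genes were at least 1 log2 unit below control. The list's medians were 0.08 in CNT-2 and 0.03 in CNT-1.

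**Figure D4:**
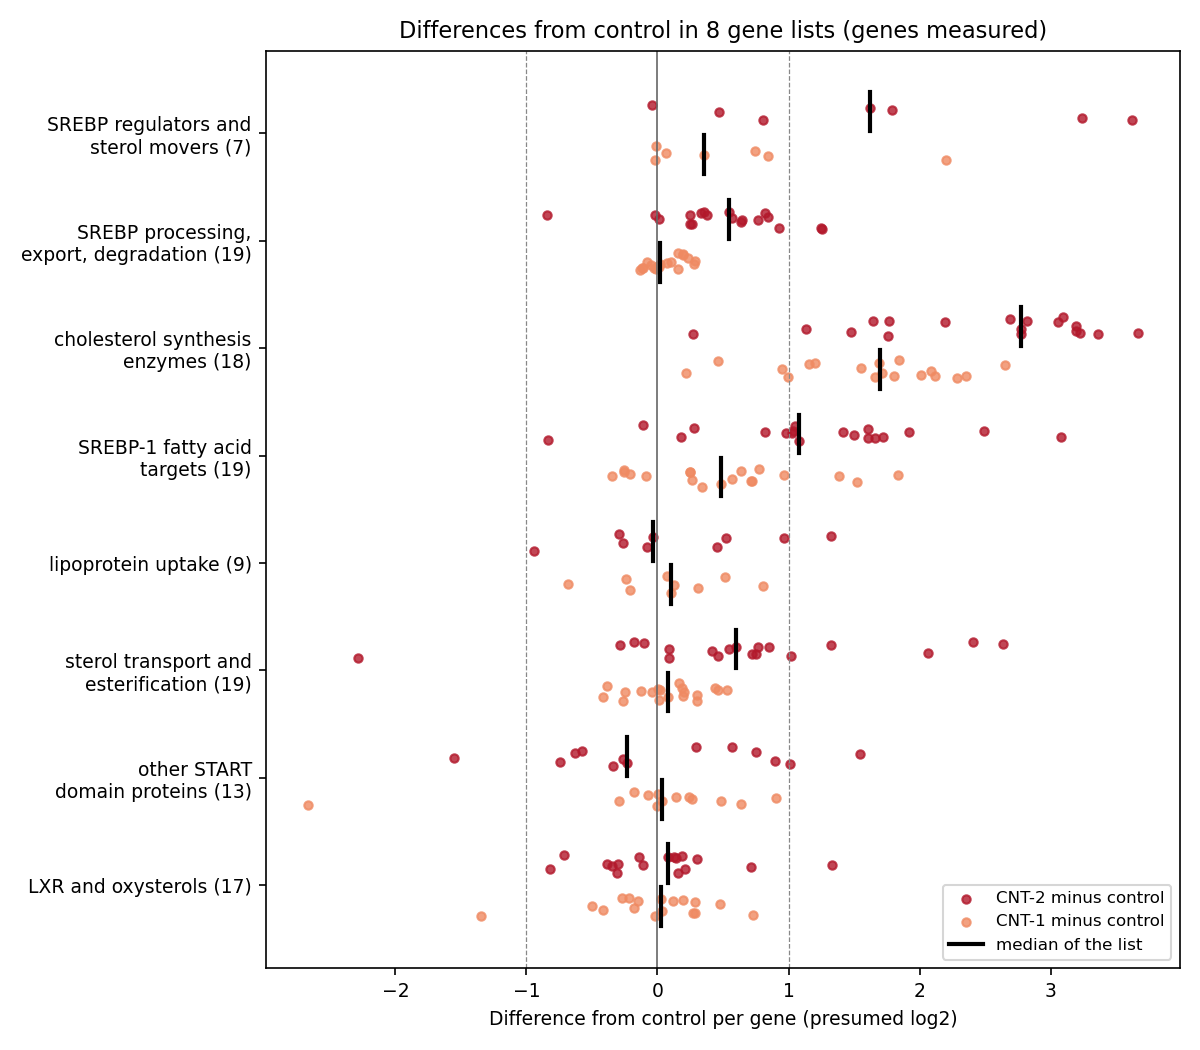
Difference from control per gene (x axis, presumed log2) for 8 gene lists (y axis, number of genes measured in brackets), with CNT-2 in red above CNT-1 in orange. Points are genes, vertical spread within a row only separates them, and black bars are medians. The cholesterol synthesis enzymes have the highest medians, 2.78 in CNT-2 and 1.70 in CNT-1, and those of lipoprotein uptake and LXR genes lie within 0.1 of 0 in CNT-2.

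Cell markers could not be used to check the cell type, because the centring removed expression levels and with them the summed level of any marker list. Of 11 alveolar macrophage markers, Fabp4 was at 3.96 in CNT-2 and -0.10 in CNT-1, Mrc1 at -2.24 ± 0.13 in CNT-2 and -0.47 ± 0.09 in CNT-1, and Csf1r at -1.25 ± 0.60 in CNT-2 and -0.69 ± 0.22 in CNT-1 (probe SD, 2 probes each for Mrc1 and Csf1r). The other 8 were within 1 log2 unit in both. Of 17 markers of other lung and blood cells, Dcn was at 2.56 in CNT-2 and 0.97 in CNT-1. Lower ones were Vwf at -1.73 ± 1.66 in CNT-2 and -0.50 ± 1.17 in CNT-1 (probe SD, 2 probes each), Nkg7 at -1.67 in CNT-2 and -0.78 in CNT-1 and Cd79a at -1.37 in CNT-2 and -0.17 in CNT-1. Epcam, an epithelial marker, was at -0.31 in CNT-2 and 1.61 in CNT-1. The medians of the macrophage list were 0.07 in CNT-2 and 0.06 in CNT-1, and those of the other list -0.28 in CNT-2 and -0.17 in CNT-1. Whether changes in cell state or in the cells present had a part in the differences above was not tested.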

How the data were processed

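The authors deposited 1 table with 3 columns, 1 each for CNT-2, CNT-1 and control, holding log2 values by presumption, to 3 decimals, from -5.715 to 8.817. Per the submitters' processing notes, Agilent Feature Extraction 10.7.3.1 was used. The sources used here do not give background correction, scaling, log base, baseline or direction. Higher values were read as more RNA. Column medians were 0.06 for CNT-2, -0.04 for CNT-1 and 0.01 for control.

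Of 41103 probes, 20932 carried 1 gene symbol and were named. The other 20171 carried none or more than 1, which were not counted apart. Of the named probes, all but 5 matched an accession, symbol or synonym of RefSeq's GRCr8 table. Differences between columns were averaged over the probes of a gene with pandas 2.3.3, and genes past 1 log2 unit were counted. No test was possible with 1 column per group. The calculation was run on simulated data with a shift built in, which checks the code and not the results given here. Members and lists were chosen with earlier results of these data known. Named were all members, the highest and lowest gene of each list in CNT-2, sterol handling genes past 1 log2 unit in both exposures, and the 3 genes nearest to each member past it. Sar1a, Elovl6, Aacs, Osbp, Osbpl5, Gramd1b, Vapa, Stard3, Abcg8, Csf1r, Epcam, Cd79a and Nkg7 were named after their values were seen, as members of counts of 5 or fewer. Acat2 was named for the spread between its probes. Genes of the lists without a probe were not analysed here. Alternatives changed the scaling, the probes, the threshold, the log base and the naming.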

Additional observations from a re-analysis of the deposited data

Results flagged for a closer look

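Genes named above that lay on opposite sides of control in the 2 exposures, by sign alone, are listed here. In no case was the difference between exposures tested, since each had 1 column. The share of all genes with opposite signs was not counted. In CNT-1 the median of all genes was -0.04 and the median probe SD 0.08, so values as small as that of Il1rn show no clear side of control. Npc1l1 was at 3.24 in CNT-2 and -0.02 in CNT-1, each minus control, and the CNT-1 value is small enough to change sign with the scaling. The sterol genes Soat2 at 2.63 in CNT-2 and -0.25 in CNT-1 and Osbpl5 at 2.41 in CNT-2 and -0.38 in CNT-1 showed the same pattern. So did Il1rn at 3.37 in CNT-2 and -0.04 in CNT-1, Sprr1a at 3.17 in CNT-2 and -0.16 in CNT-1 and Rnf186 at 3.09 in CNT-2 and -0.13 in CNT-1, which were picked as the genes closest to Npc1l1. The macrophage marker Fabp4 was at 3.96 in CNT-2 and -0.10 in CNT-1, and the epithelial marker Epcam the other way round, at -0.31 in CNT-2 and 1.61 in CNT-1.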

How the results depend on the processing

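With 11 alternative settings, 24 of 33 recomputed counts of members past the threshold stayed within 1.5 times the reported count. For CNT-1 minus control the count of 1 became 3 with quantile normalization, with a threshold of 1.5-fold and with a natural log presumed, while the share of all genes past the threshold in either direction went from 3.30% to 8.23%, 10.3% and 7.45%. For CNT-2 minus control the count of 4 became 2 with quantile normalization and with a threshold of 4-fold, and the share of all genes went from 16.7% to 8.76% and 3.76%. For CNT-2 minus CNT-1 the count of 4 became 2 when columns were centred on spike-in probes or on their 75th percentile, 2 after quantile normalization (1 higher and 1 lower) and 1 with a threshold of 4-fold, beside shares of all genes of 14.0% as reported and, in that order, 13.7%, 14.6%, 4.84% and 2.51%. Of 222 recomputed member differences 149 moved by less than the median probe SD over genes, 71 moved further, and 2 that had been past 1 log2 unit changed sign, Insig1 at -1.43 and Stard4 at -0.11 for CNT-2 minus CNT-1 under quantile normalization, which by construction gives columns of unequal spread the same one. Counting differences under 1 log2 unit as well, 13 changed sign, all others being of Srebf1, Srebf2, Scap or Npc1l1, among them Srebf1 under quantile normalization at -0.12 in CNT-2 relative to control and at -0.10 in CNT-2 relative to CNT-1. Minus control, Insig1 stayed between 1.97 and 5.23 in CNT-2 and between 2.15 and 3.40 in CNT-1, Npc1l1 between 1.60 and 4.68, Insig2 between 0.99 and 2.34 and Stard4 between 0.96 and 2.58 in CNT-2, and Srebf2 between 0.36 and 1.16 in CNT-2 and between 0.67 and 1.31 in CNT-1. Srebf1 ranged from -0.12 to 0.68 in CNT-2 and from -0.02 to 0.23 in CNT-1, so its sign was not settled. Of 189 recomputed list medians 58 moved by more than the probe SD and 18 changed sign. The cholesterol enzyme median for CNT-2 minus CNT-1 was 0.94 as reported and -1.20 with quantile normalization, and that of the fatty acid genes 0.59 and -0.20. The other sign changes were in the START, LXR, lipoprotein uptake and SREBP processing lists. No paired analysis was possible because each group had 1 column and no test was made. The depth over background of a probe cannot be read from centred values.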
